A study of Homo sapiens with 12 samples.

Results

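The genes described here encode the MHC class II molecules, their peptide-loading helpers and their transcriptional coactivator, measured in L-1236 and U-HO1, a pair of Hodgkin lymphoma lines. The set is defined by symbol and holds 10 genes: CIITA, CD74, HLA-DRA, HLA-DPA1, HLA-DPB1, HLA-DQA1, HLA-DMA, HLA-DMB, HLA-DOA and HLA-DOB. Every probe set annotated with exactly 1 of these symbols was used, which gave 14 of the 32321 probe sets on the array and covered 8 of the 10 genes. CD74 and HLA-DRA have only probe sets annotated with several genes, so no value is given for either. The symbols, not measured values, chose the genes.

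Expression was read on 12 Affymetrix arrays of 1 colour that cover whole transcripts, in 4 groups of 3. Both lines are established human cell lines from a tumour of B-cell origin. The medium was RPMI 1640 for L-1236 and IMDM for U-HO1, each with fetal calf serum, glutamine and antibiotics. Cells received either a short hairpin RNA against GATA-3, the transcription factor of T-helper 2 differentiation, or a control hairpin without function that the titles call siSCR. All groups share the transduction, 3 days of culture, sorting of 25000 cells by the GFP of the vector, and amplification of their RNA. How the samples of a group are independent is not stated beyond that word, so each p-value reflects only the spread among these 12 arrays, whose number limits the precision.

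MHC class II molecules present peptides from the endosomal pathway to CD4+ T cells. An alpha and a beta chain (HLA-DP, HLA-DQ or HLA-DR) pair in the endoplasmic reticulum with the invariant chain CD74, which is later cut to a short fragment that fills the groove. HLA-DM (HLA-DMA with HLA-DMB) exchanges this fragment for antigenic peptides, and HLA-DO (HLA-DOA with HLA-DOB) inhibits HLA-DM, chiefly in B cells. CIITA binds no DNA itself: it is recruited to the X and Y boxes of class II promoters by the RFX, CREB and NF-Y factors assembled there, and it is induced by interferon-gamma or, in B cells, transcribed from its own B-cell promoter. Hodgkin and Reed-Sternberg cells are known for having lost much of the B-cell programme and for varying in class II expression from tumour to tumour.

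The sequences below are the 150 bases upstream of the annotated start of 6 genes from RefSeq (GRCh38.p14), written 5′ to 3′ on the gene's own strand. They are shown because X and Y boxes in such windows are where CIITA is recruited, and because the 6 genes did not all differ between the lines in the same direction. Capitals mark every match, on either strand, to AACNGA, letters found in many X boxes, or to ATTGG, the core of the Y box that NF-Y binds (CCAAT on the other strand). The 2 motifs do not overlap in these windows. Both were chosen after the windows had been seen, and a match describes letters only.
HLA-DPB1, chr6:33075840-33075989, plus strand: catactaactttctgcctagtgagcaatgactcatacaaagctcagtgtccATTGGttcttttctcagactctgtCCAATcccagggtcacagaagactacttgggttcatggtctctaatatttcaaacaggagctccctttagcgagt
HLA-DQA1, chr6:32637256-32637405, plus strand: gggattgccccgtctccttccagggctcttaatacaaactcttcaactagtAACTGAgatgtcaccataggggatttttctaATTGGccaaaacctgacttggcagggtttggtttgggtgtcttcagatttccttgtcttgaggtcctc
HLA-DMA, chr6:32953098-32953247, minus strand: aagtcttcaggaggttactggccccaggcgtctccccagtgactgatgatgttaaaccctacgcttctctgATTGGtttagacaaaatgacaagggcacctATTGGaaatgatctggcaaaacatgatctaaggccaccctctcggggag
HLA-DMB, chr6:32941029-32941178, minus strand: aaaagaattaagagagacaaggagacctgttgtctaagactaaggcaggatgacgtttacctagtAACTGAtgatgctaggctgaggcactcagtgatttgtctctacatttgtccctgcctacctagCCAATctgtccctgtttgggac
HLA-DOA, chr6:33009592-33009741, minus strand: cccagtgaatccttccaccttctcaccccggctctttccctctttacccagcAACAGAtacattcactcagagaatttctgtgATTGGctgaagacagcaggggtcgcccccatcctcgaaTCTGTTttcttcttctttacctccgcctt
HLA-DOB, chr6:32817003-32817152, minus strand: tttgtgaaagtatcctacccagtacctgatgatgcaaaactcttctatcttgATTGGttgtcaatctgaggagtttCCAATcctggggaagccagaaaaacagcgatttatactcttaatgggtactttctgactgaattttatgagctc

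Of the 10 genes, 8 have an entry in the promoter table, HLA-DPA1 has 2 entries, and CIITA and HLA-DRA have no window here. ATTGG occurred in 7 of these 9 windows and in 23.5% of the 35116 windows of all genes. AACNGA occurred in 4 of the 9 and in 17.1% of all windows, and both motifs together in 3 of the 9 and in 4.03%. HLA-DOA and HLA-DQA1 share one arrangement: AACNGA and then ATTGG on the gene's strand with 25 bases between them. It was found in 6 of the 35116 windows (0.0171%), of which 2 are these same windows. The spacing was read from these 2 windows before it was counted, so the share does not test how unusual it is. HLA-DOA has AACNGA from -98 to -93 and ATTGG from -67 to -63 relative to the start, and HLA-DQA1 has them from -99 to -94 and from -68 to -64. The pair that shares this arrangement read on opposite sides in the comparison of the lines, as given below.

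Values are read as log2 expression, from their range of 3.86 to 13.99, since no source used here states the log base. A difference of 1 is then a 2-fold change. Array medians lay between 6.96 and 7.09. Levels of different probe sets depend on their probes and are not compared with each other, so each gene is compared only with itself across arrays. A gene with several probe sets is represented by its brightest one on average, and the others are given where they disagree. In samples of many cells a change in the share of expressing cells and a change in RNA per cell cannot be told apart.

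GATA3, the target of the hairpin, did not separate the labels: it differed by 0.03 in L-1236 (exact two-sided permutation p = 0.9) and by -0.32 in U-HO1 (exact p = 0.5), where the smallest p possible is 0.1. Arrays are therefore called by their labels. TNFRSF8, which encodes the Hodgkin marker CD30, read 9.36 to 10.50 over both lines. It passed as higher in U-HO1, by 1.60-fold on control arrays and by 1.47-fold on GATA-3 shRNA arrays. TRAF1 was 7.62-fold higher in U-HO1, reading as low as 6.75 in L-1236, and CCL22 was 4.14-fold lower, reading as low as 6.75 in U-HO1, both near the array medians. The means of the 10 markers overlapped between the lines, although 4 markers were higher and 3 lower in U-HO1 on control arrays. Of the B-lineage genes, CD22 was 5.83-fold and PAX5 3.93-fold lower in U-HO1, and 4 of 6 measured did not pass the test. The mean of CD22 on U-HO1 control arrays was 6.37, below the array medians, where a level is not shown to lie above background. Among the 4, MS4A1 and CD79A read at most 5.94 and 6.83 on any array, also below the medians. Their missing calls do not show that the lines were alike. The T-cell receptor genes CD3D, CD3E and CD3G read 5.78 to 6.32 on all arrays, and of 6 T-lineage genes measured only CD4 passed, 3.25-fold lower in U-HO1. Of 9 monocyte, macrophage and dendritic markers, CD68 and ITGAX were higher in U-HO1 (4.68-fold and 2.42-fold) and 7 did not pass, the group means being 6.26 to 6.38 on L-1236 control arrays and 6.62 to 6.70 on U-HO1 control arrays. Over all probe sets, 13.3% passed as higher and 12.5% as lower in U-HO1 on control arrays. The part of these marker differences in the class II results was not tested.

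The first question was how the class II genes differ between the lines, which the labels imply although the submitters' design text names no such comparison. On the control arrays all 8 measured genes passed the test: CIITA, HLA-DPA1, HLA-DPB1, HLA-DMA, HLA-DMB and HLA-DOA were higher in U-HO1, by 1.76-fold to 3.09-fold, and HLA-DQA1 and HLA-DOB were higher in L-1236, by 2.05-fold and 3.57-fold. The test was limma over all probe sets with Benjamini-Hochberg adjustment at 0.05, which called 25.8% of all probe sets (13.3% higher and 12.5% lower in U-HO1). The median difference of the 8 genes was 0.92 against 0.00063 over all probe sets. With a difference of at least 2-fold as well, 5 of the 8 passed (HLA-DPB1, HLA-DMA and HLA-DOA higher, HLA-DQA1 and HLA-DOB lower), against 4.99% of all probe sets (2.69% higher and 2.31% lower). The GATA-3 shRNA arrays gave 8 of 8 again with the same 6 higher and the same 2 lower, against 24.7% of all probe sets. The 2 comparisons share no array in their means. Both tests use 1 estimate of the spread from all 12 arrays, so their calls are not independent. At 2-fold 4 of 8 passed there (HLA-DPB1 and HLA-DOA higher, HLA-DQA1 and HLA-DOB lower), against 5.06% (2.4% higher and 2.65% lower). The 6 U-HO1 arrays and the 6 L-1236 arrays did not overlap for any of the 8 genes, which held for 23.3% of all probe sets.

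**Figure D1:**
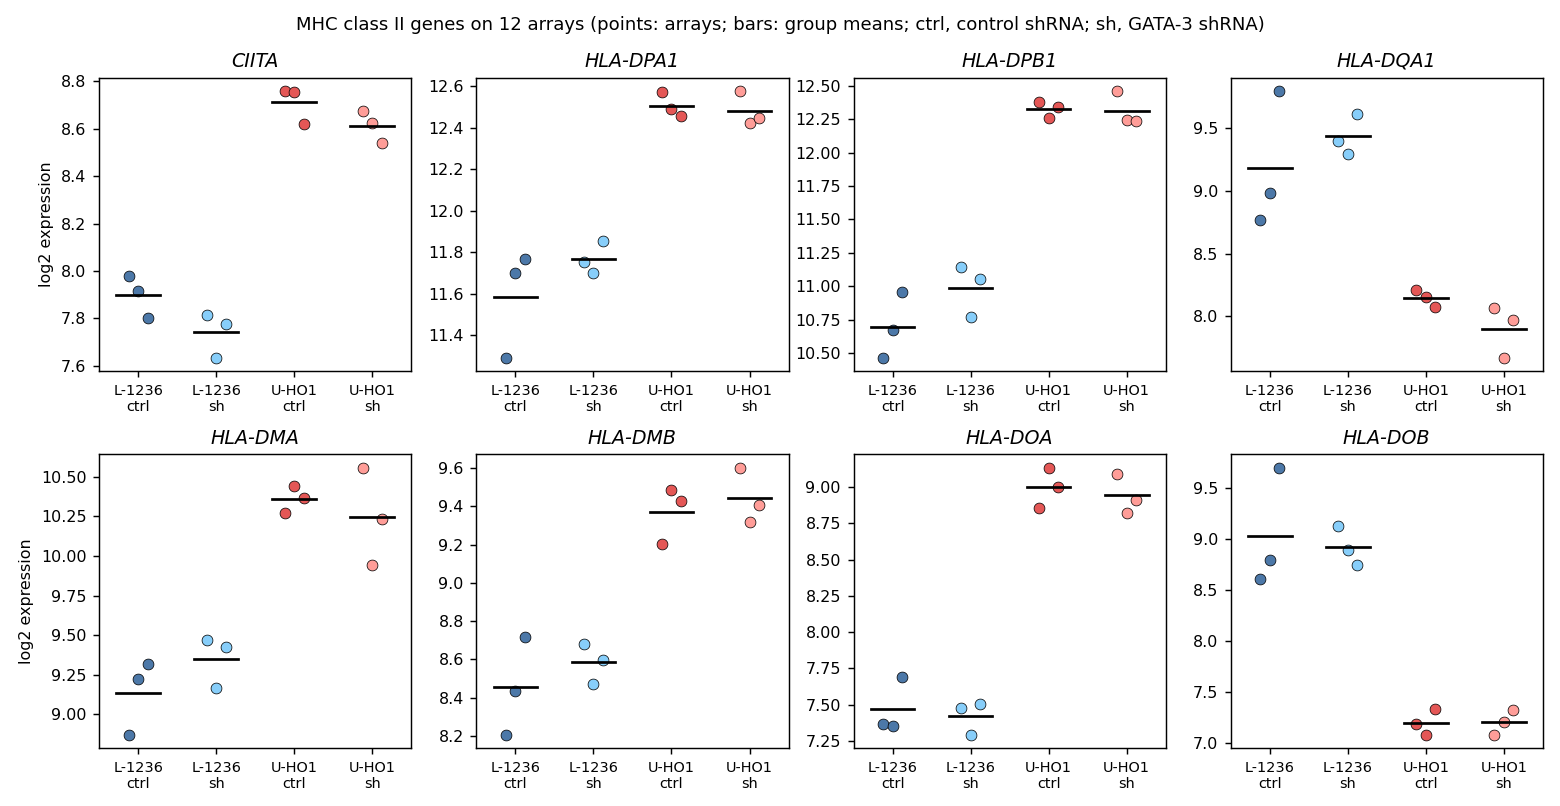
Log2 expression (vertical axis) of the 8 measured class II genes on each of the 12 arrays, by line and label (horizontal axis), with points for arrays and bars for the means of 3 arrays. In 6 panels all U-HO1 points lie above all L-1236 points, and for HLA-DQA1 and HLA-DOB all lie below.

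CIITA, the coactivator on which class II transcription depends, was higher in U-HO1. L-1236 control arrays read 7.98, 7.92 and 7.80 and GATA-3 shRNA arrays 7.81, 7.63 and 7.78. U-HO1 control arrays read 8.76, 8.76 and 8.62 and GATA-3 shRNA arrays 8.67, 8.62 and 8.54. All U-HO1 arrays lay above all L-1236 arrays, and within each line the labels overlapped. The control means were 8.71 ± 0.08 (SD, n = 3) in U-HO1 and 7.90 ± 0.09 in L-1236. This is 1.76-fold, with a 95% interval from 1.56 to 1.98 (limma adjusted p = 1.02e-05). The GATA-3 shRNA arrays gave 1.83-fold (adjusted p = 5.44e-06).

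Among the peptide-presenting chains, both HLA-DP genes were higher in U-HO1 and HLA-DQA1 was lower. HLA-DPA1, the DP alpha chain, read 11.29, 11.70 and 11.77 on L-1236 control arrays and 11.75, 11.70 and 11.85 on L-1236 GATA-3 shRNA arrays. It read 12.57, 12.49 and 12.46 on U-HO1 control arrays and 12.58, 12.42 and 12.44 on U-HO1 GATA-3 shRNA arrays. The U-HO1 arrays lay within a narrow range above all L-1236 arrays, of which control replicate 1 was the lowest. The control difference was 1.89-fold (interval 1.60 to 2.23, adjusted p = 6.52e-05 by limma), and the GATA-3 shRNA difference 1.64-fold (adjusted p = 0.000449). The second HLA-DPA1 probe set gave differences of 0.88 and 0.70, close to the 0.92 and 0.71 of the first (adjusted p = 0.00124 and 0.0056).

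HLA-DPB1, the DP beta chain, was higher in U-HO1 by its brightest probe set. L-1236 control arrays read 10.46, 10.67 and 10.95 and GATA-3 shRNA arrays 11.14, 10.77 and 11.05. U-HO1 control arrays read 12.38, 12.26 and 12.34 and GATA-3 shRNA arrays 12.46, 12.24 and 12.23. The lines were far apart relative to the spread within each, and U-HO1 varied less than L-1236. The control difference was 3.09-fold (interval 2.55 to 3.76, limma adjusted p = 1.8e-06) and the GATA-3 shRNA difference 2.50-fold (adjusted p = 9.9e-06).

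The 3 HLA-DPB1 probe sets did not all show this. Probe set 8118594 gave 2.40-fold on control arrays (limma adjusted p = 3.95e-06) and a log2 difference of 1.00 on GATA-3 shRNA arrays. Probe set 8178220 read 6.92, 6.83 and 7.26 on L-1236 control arrays and 7.46, 7.19 and 7.27 on U-HO1 control arrays. Its lines overlapped, and its differences of 0.30 and 0.20 did not pass (adjusted p = 0.0927 and 0.284). HLA genes are highly polymorphic, and whether the alleles of each line match the probes to the same extent is not known here. For every gene compared between the lines, CIITA and the genes of the other lists included, the line and its culture medium cannot be told apart. For every HLA gene the alleles a line carries cannot be told apart from these either.

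HLA-DQA1, the DQ alpha chain, was lower in U-HO1. L-1236 control arrays read 8.77, 8.99 and 9.80 and GATA-3 shRNA arrays 9.40, 9.29 and 9.62. U-HO1 control arrays read 8.21, 8.15 and 8.07 and GATA-3 shRNA arrays 8.07, 7.67 and 7.97. L-1236 control replicate 3 was the highest array of all, and no U-HO1 array reached the lowest L-1236 array. The control difference was 2.05-fold lower in U-HO1 (interval 1.49 to 2.83, limma adjusted p = 0.00297), and the GATA-3 shRNA difference 2.90-fold lower (adjusted p = 0.000178). This result rests on 1 probe set, since the other 6 that name HLA-DQA1 name further genes too and were not used.

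3 further class II genes outside the set had a probe set of their own. HLA-DRB5, a DR beta chain carried only on some haplotypes, was 2.04-fold higher in U-HO1 on control arrays (limma adjusted p = 1.16e-05). HLA-DPB2, a DP pseudogene, was 1.53-fold higher (adjusted p = 3.01e-05). HLA-DQB1, the partner chain of HLA-DQA1, differed by -0.27 and did not pass (adjusted p = 0.337). The DQ pair therefore gave 1 difference that passed and 1 that did not, both negative. On L-1236 and U-HO1 control arrays the means were 7.13 and 6.86 for HLA-DQB1 and 6.41 and 7.03 for HLA-DPB2. HLA-DRB5 had a mean of 7.16 on L-1236 control arrays. These levels lie near or below the array medians of 6.96 to 7.09, where a level is not shown to lie above background.

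Both chains of the peptide editor HLA-DM were higher in U-HO1. HLA-DMA read 8.87, 9.22 and 9.32 on L-1236 control arrays and 9.47, 9.16 and 9.42 on L-1236 GATA-3 shRNA arrays. It read 10.27, 10.44 and 10.36 on U-HO1 control arrays and 10.56, 9.94 and 10.23 on U-HO1 GATA-3 shRNA arrays. The lines did not overlap, the closest arrays being L-1236 GATA-3 shRNA replicate 1 and U-HO1 GATA-3 shRNA replicate 2. The differences were 2.33-fold on control arrays (interval 1.85 to 2.95, limma adjusted p = 8.99e-05) and 1.86-fold on GATA-3 shRNA arrays (adjusted p = 0.000954).

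The second HLA-DMA probe set, 8125537, disagreed in sign. It read between 5.27 and 6.76 over the 12 arrays, and its differences of -0.63 and -0.08 did not pass (limma adjusted p = 0.0772 and 0.882). It was among the dimmest readings of U-HO1 control arrays, at the 13.6th percentile of all probe sets. The deposited values give no detection call, so a level there is not shown to lie above background.

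HLA-DMB, the beta chain of the editor, followed HLA-DMA in direction. L-1236 control arrays read 8.21, 8.44 and 8.72 and GATA-3 shRNA arrays 8.68, 8.47 and 8.60. U-HO1 control arrays read 9.21, 9.48 and 9.43 and GATA-3 shRNA arrays 9.60, 9.32 and 9.41. Every U-HO1 array lay above every L-1236 array. The differences were 1.89-fold (interval 1.56 to 2.29, limma adjusted p = 0.000197) and 1.81-fold (adjusted p = 0.000333).

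The 2 chains of HLA-DO, the inhibitor of HLA-DM, went opposite ways. HLA-DOA, its alpha chain, read 7.37, 7.36 and 7.69 on L-1236 control arrays and 7.48, 7.29 and 7.51 on L-1236 GATA-3 shRNA arrays. It read 8.86, 9.13 and 9.00 on U-HO1 control arrays and 9.09, 8.82 and 8.91 on U-HO1 GATA-3 shRNA arrays. The gap between the lines was wider than the range within either. The differences were 2.89-fold higher in U-HO1 on control arrays (interval 2.43 to 3.42, limma adjusted p = 1.08e-06) and 2.86-fold on GATA-3 shRNA arrays (adjusted p = 1.11e-06). Probe set 8125545 of HLA-DOA gave larger differences in the same direction, 5.81-fold and 6.57-fold (adjusted p = 2.45e-07 and 1.36e-07 by limma). On L-1236 control arrays it stood at the 37.3rd percentile of all probe sets, where a level is not shown to lie above background.

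HLA-DOB, the beta chain, was lower in U-HO1. L-1236 control arrays read 8.60, 8.79 and 9.70 and GATA-3 shRNA arrays 9.13, 8.89 and 8.75. U-HO1 control arrays read 7.18, 7.08 and 7.33 and GATA-3 shRNA arrays 7.08, 7.21 and 7.33. All U-HO1 arrays lay below all L-1236 arrays, and control replicate 3 stood highest in L-1236. HLA-DOB was 3.57-fold lower in U-HO1 on control arrays (interval 2.55 to 4.99, limma adjusted p = 6.58e-05) and 3.29-fold lower on GATA-3 shRNA arrays (adjusted p = 0.000109). Its U-HO1 readings lay near the array medians of 6.96 to 7.09, and no detection call is given for them. Probe set 8125470 of HLA-DOB was lower in U-HO1 too (adjusted p = 9.77e-06 and 1.5e-05). It stood at the 1.66th percentile of all probe sets on U-HO1 control arrays, where a level is not shown to lie above background, so no size is given for its difference.

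Over all 14 probe sets, 12 passed on control arrays (9 higher and 3 lower in U-HO1) and 12 on GATA-3 shRNA arrays, against 25.8% and 24.7% of all probe sets. One of the 12 is the dim 8125470 of HLA-DOB. The 2 that did not pass in either comparison were 8178220 of HLA-DPB1 and 8125537 of HLA-DMA. Where a gene was called only if all of its probe sets were, 6 of 8 genes passed in each comparison. Read as natural logarithms instead of log2, the same values put 8 of 8 genes past 2-fold in both comparisons. The share of all genes or probe sets passing either of these rules was not computed, so these counts have no share to be read against.

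**Figure D2:**
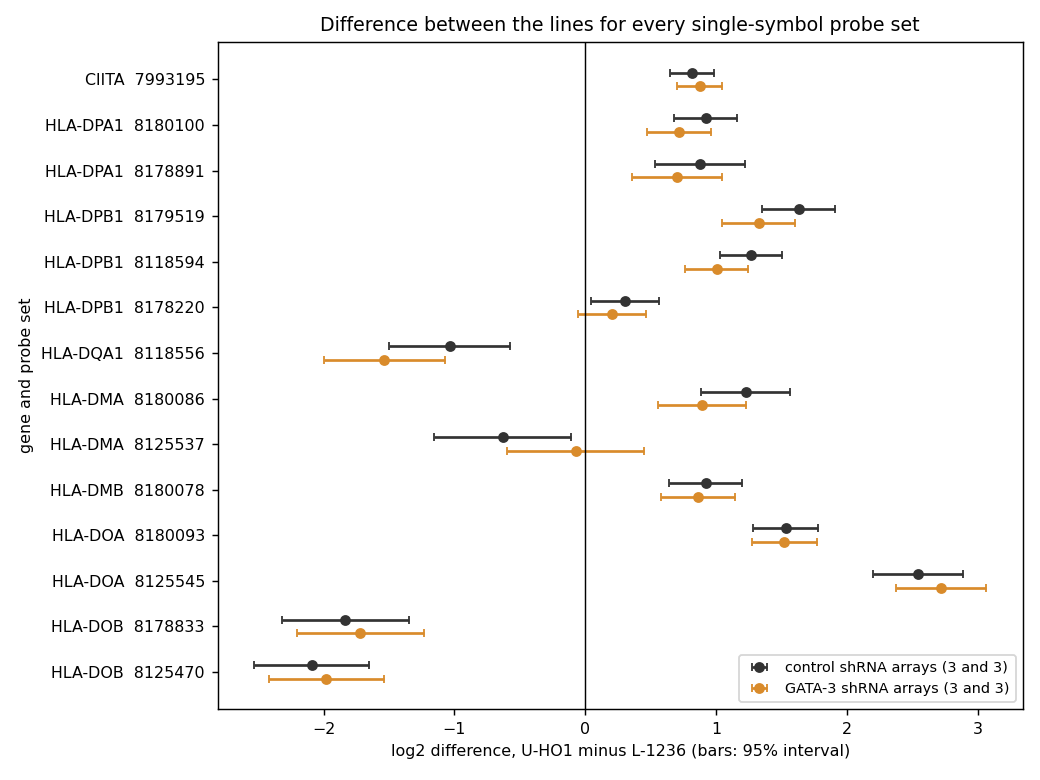
Log2 difference, U-HO1 minus L-1236 (horizontal axis), for each of the 14 probe sets (vertical axis), with the 95% interval, on control arrays and on GATA-3 shRNA arrays of 3 per line. The intervals of 12 probe sets lie on one side of 0 in both comparisons, and those of 8178220 of HLA-DPB1 and 8125537 of HLA-DMA reach 0 on GATA-3 shRNA arrays.

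The submitters' own comparisons asked which transcripts differ between GATA-3 shRNA and control shRNA in each line. By their criteria, an FDR no higher than 25% with at least a 1.5-fold change, 0 of the 8 class II genes passed in L-1236 and 0 in U-HO1, and limma called 0% of all probe sets in either. At an unadjusted p under 0.05 there was 1 gene in L-1236 and 0 in U-HO1, against 4.77% and 1.05% of all probe sets. In L-1236 the 8 genes had a median difference of 0.16, with 5 positive and 3 negative, against -0.0091 over all probe sets. In U-HO1 the median was -0.04, with 2 positive and 6 negative, against -0.0016.

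The gene with an unadjusted p under 0.05 was HLA-DPB1 in L-1236, at a difference of 0.29 (SE 0.13, adjusted p = 0.925 by limma), and its arrays overlapped between the labels. Its dimmer probe set 8178220 differed by 0.34 (adjusted p = 0.925 by limma). The labels did not overlap there, by a gap of 0.0206, which held for 10.7% of all probe sets in L-1236 (3.24% with the GATA-3 shRNA arrays above and 7.45% with them below). CIITA differed by -0.16 in L-1236 (SE 0.08, adjusted p = 0.925 by limma) and by -0.10 in U-HO1. HLA-DQA1 differed by 0.25 in L-1236 and by -0.24 in U-HO1, where the lowest control array and the highest GATA-3 shRNA array were 0.0068 apart without overlapping. Such separation held for 3.79% of all probe sets in U-HO1 (1.8% with the GATA-3 shRNA arrays above and 1.99% below).

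Over the 14 probe sets, 2 had an unadjusted p under 0.05 in L-1236, both of HLA-DPB1, and 1 in U-HO1, 8125537 of HLA-DMA at 0.54. The remaining genes differed between the labels by at most 0.22. HLA-DPA1 differed by 0.18 and -0.02 in L-1236 and U-HO1, and HLA-DMA by 0.22 and -0.12. HLA-DMB differed by 0.13 and 0.07, HLA-DOA by -0.04 and -0.06, and HLA-DOB by -0.11 and 0.01. The 95% intervals of the 8 genes reached from -0.59 to 0.72 in L-1236 and from -0.71 to 0.49 in U-HO1. Changes of up to 1.64-fold and 1.63-fold therefore lie inside them, and a missing call does not show that the labels were alike. The difference between the 2 lines in the effect of the label was called for 0 of the 8 genes (limma, 0 at an unadjusted p under 0.05, against 2.46% of all probe sets). It was farthest from 0 for HLA-DQA1, at -0.50 (SE 0.30, adjusted p = 1.00).

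**Figure D3:**
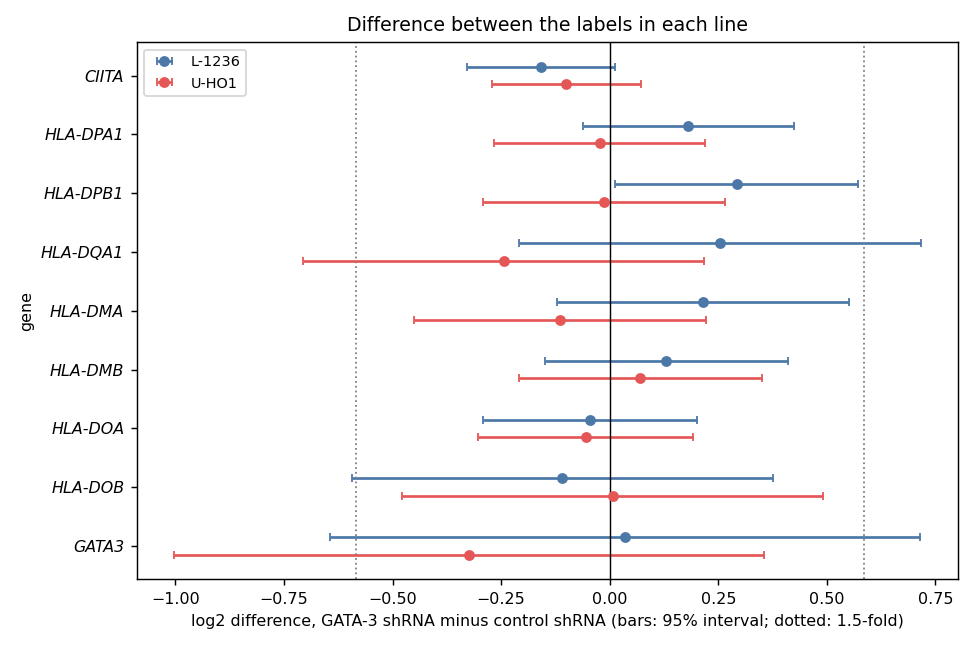
Log2 difference, GATA-3 shRNA minus control shRNA (horizontal axis), for the 8 class II genes and GATA3 (vertical axis) in L-1236 and U-HO1, with the 95% interval and dotted lines at 1.5-fold. The points of the class II genes lie between -0.24 and 0.29, inside the dotted lines.

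Most of the class II genes varied more between arrays of L-1236 than between arrays of U-HO1. The range over the 6 arrays of a line was wider in L-1236 for 7 of the 8 genes, HLA-DMA being the exception, with a median range of 0.58 against 0.28. Over all probe sets 55.5% were wider in L-1236. In L-1236, 7 of the 8 genes lay above their mean of the line on control replicate 3 and 7 on GATA-3 shRNA replicate 1. Only 1 did so on control replicate 1 and 1 on GATA-3 shRNA replicate 2. CIITA was the exception on control replicate 3 and on GATA-3 shRNA replicate 1, and was highest on control replicate 1. Its Pearson correlation with each other gene was negative in L-1236, from -0.62 (HLA-DPA1) to -0.0030 (HLA-DOA). In U-HO1 it ran from -0.75 (HLA-DOB) to 0.65 (HLA-DPA1). These correlations rest on 6 arrays each and were not tested. Control replicate 3 was the highest L-1236 array for HLA-DQA1, HLA-DMB, HLA-DOA and HLA-DOB, and control replicate 1 was the lowest for 6 of the 8.

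Interferon-induced genes also differed between the L-1236 arrays. The mean of 16 genes induced by type I interferon was 7.81, 7.57 and 10.09 on L-1236 control arrays and 9.08, 9.92 and 8.37 on GATA-3 shRNA arrays. The mean of 13 of 16 genes induced by interferon-gamma was 8.16, 8.25 and 9.20 on the control arrays and 8.66, 9.03 and 8.51 on the GATA-3 shRNA arrays. Control replicate 3 was the highest for both means, as for the 4 genes just named. GATA-3 shRNA replicate 2 was second highest for both means, but there only 1 of the 8 class II genes lay above its mean of the line. In U-HO1 the type I mean stayed between 7.97 and 8.26 and the interferon-gamma mean between 8.66 and 9.01. The part of these genes in the spread of the class II genes was not tested.

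**Figure D4:**
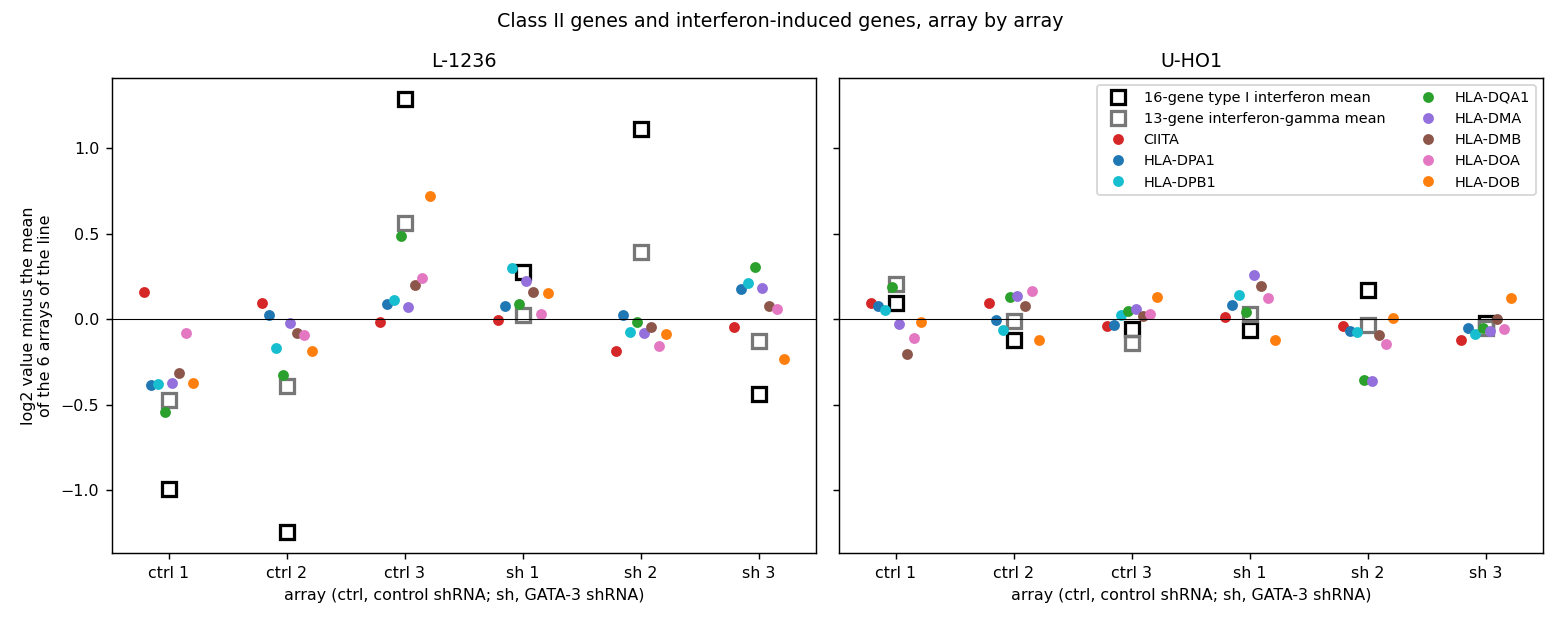
Log2 value minus the mean of the 6 arrays of the line (vertical axis) for the 8 class II genes (circles) and the means of 16 type I interferon-induced and 13 interferon-gamma-induced genes (squares), by array (horizontal axis), in L-1236 and U-HO1. The squares spread widely in L-1236, with control replicate 3 highest, and stay close to 0 in U-HO1.

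The factors that carry CIITA to the promoter did not share one direction between the lines. Of 7 measured genes of the enhanceosome (8 listed), 3 were higher and 2 lower in U-HO1 on control arrays and 2 did not pass, against the 13.3% and 12.5% of all probe sets called each way. NFYA, the regulatory subunit of NF-Y, was 1.74-fold lower (limma adjusted p = 3.96e-05), and RFXAP, a subunit of RFX, was 1.67-fold lower (adjusted p = 0.000109). NFYB was 1.33-fold and CREB1 1.30-fold higher on control arrays (adjusted p = 0.00808 and 0.0179), and neither passed on GATA-3 shRNA arrays (adjusted p = 0.236 and 0.226). NFYB read at most 6.82 on any array, below the array medians, where a level is not shown to lie above background. On control arrays the list's median was 0.36 against 0.00063 over all probe sets. On GATA-3 shRNA arrays 0 genes of the list were higher and 3 were lower, against 12.2% and 12.5% of all probe sets, with a median of 0.16 against 0.031.

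Of 5 coactivators that work with CIITA, 3 were higher, 1 was lower and 1 did not pass on control arrays. Over all probe sets 13.3% were called higher and 12.5% lower there. The histone acetyltransferases EP300 (1.61-fold), KAT2B (1.46-fold) and CREBBP (1.32-fold) were higher in U-HO1, with limma adjusted p = 0.000888, 0.00124 and 0.0266. SMARCA4, the ATPase of a chromatin remodeller needed for CIITA induction, was 1.83-fold lower (adjusted p = 3.52e-06). CREBBP did not pass on GATA-3 shRNA arrays (adjusted p = 0.292).

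Genes that regulate CIITA differed in both directions. Of 13 measured genes (14 listed), 5 were higher in U-HO1, 3 were lower and 5 did not pass, and the list's median was 0.03. The shares over all probe sets were 13.3% higher and 12.5% lower. PRDM1, the plasma-cell repressor that silences CIITA in plasma cells, was 8.92-fold higher in U-HO1 (limma adjusted p = 7.87e-08), in the same line as the higher CIITA. IRF8, a factor of B cells and myeloid cells, was 2.92-fold higher (adjusted p = 7.1e-06). PAX5, the B-cell identity factor, was 3.93-fold lower, and IFNGR2, a chain of the interferon-gamma receptor, 2.95-fold lower (adjusted p = 5.36e-07 for IFNGR2). IFNGR1, the other chain, went the opposite way, 3.60-fold higher on control arrays and 2.90-fold higher on GATA-3 shRNA arrays (adjusted p = 3.72e-05 and 0.000157); it is named after its value was seen. The GATA-3 shRNA arrays gave differences of the same sign for PRDM1, IRF8, PAX5 and IFNGR2, from -2.02 to 2.95.

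The endosomal proteases and inhibitors were mixed. Of 12 genes, 3 were higher in U-HO1, 2 were lower and 7 did not pass, against 13.3% and 12.5% of all probe sets. CTSS, the cathepsin that removes the last part of CD74 in antigen-presenting cells, was 2.31-fold higher (limma adjusted p = 0.000556), and LGMN, an asparagine-specific protease, was 1.74-fold higher (adjusted p = 0.000133). CTSH was 1.91-fold lower and CTSB 1.57-fold lower (adjusted p = 0.000559 and 0.0143). Of 9 genes of class II turnover and traffic, 2 were higher (the tetraspanin CD63 at 1.79-fold and the chaperone HSP90AA1 at 1.38-fold), the tetraspanin CD82 was 1.86-fold lower, and 6 did not pass. The same shares of all probe sets, 13.3% higher and 12.5% lower, apply to this list. CD37, another tetraspanin, did not pass at a difference of -0.43 (limma adjusted p = 0.0667), and it passed on GATA-3 shRNA arrays at -0.58 (adjusted p = 0.0163). On those arrays 2 genes of that list were higher, 4 were lower and 3 did not pass, against 12.2% and 12.5% of all probe sets.

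The costimulatory genes went the other way from most class II genes. CD40 was 3.88-fold, CD80 2.15-fold and CD86 1.41-fold lower in U-HO1 on control arrays (limma adjusted p = 5.21e-07, 1.87e-05 and 0.00806), and ICOSLG differed by 0.11 and did not pass. CD40 receives the signal of CD40 ligand on T cells, and CD80 and CD86 bind CD28. On GATA-3 shRNA arrays the same 3 passed in the same direction. Among the interferon-gamma-induced genes 6 were higher, 3 lower and 4 did not pass. IDO1, which degrades tryptophan, was 5.51-fold higher and TAP1, the peptide transporter of the class I pathway, itself encoded in the class II region, 2.34-fold lower (adjusted p = 2.08e-07 and 5.18e-05 by limma). The mean of IDO1 on L-1236 control arrays was 5.75, below the array medians, where a level is not shown to lie above background. Of the 16 type I interferon-induced genes, 1 was higher (MX2, 3.22-fold), 1 was lower (IFI44L, 3.21-fold) and 14 did not pass. The counts of this paragraph stand against 13.3% of all probe sets called higher and 12.5% lower on control arrays. In none of these lists did a gene pass the submitters' criteria between the shRNA labels in either line, against 0% of all probe sets by limma.

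**Figure D5:**
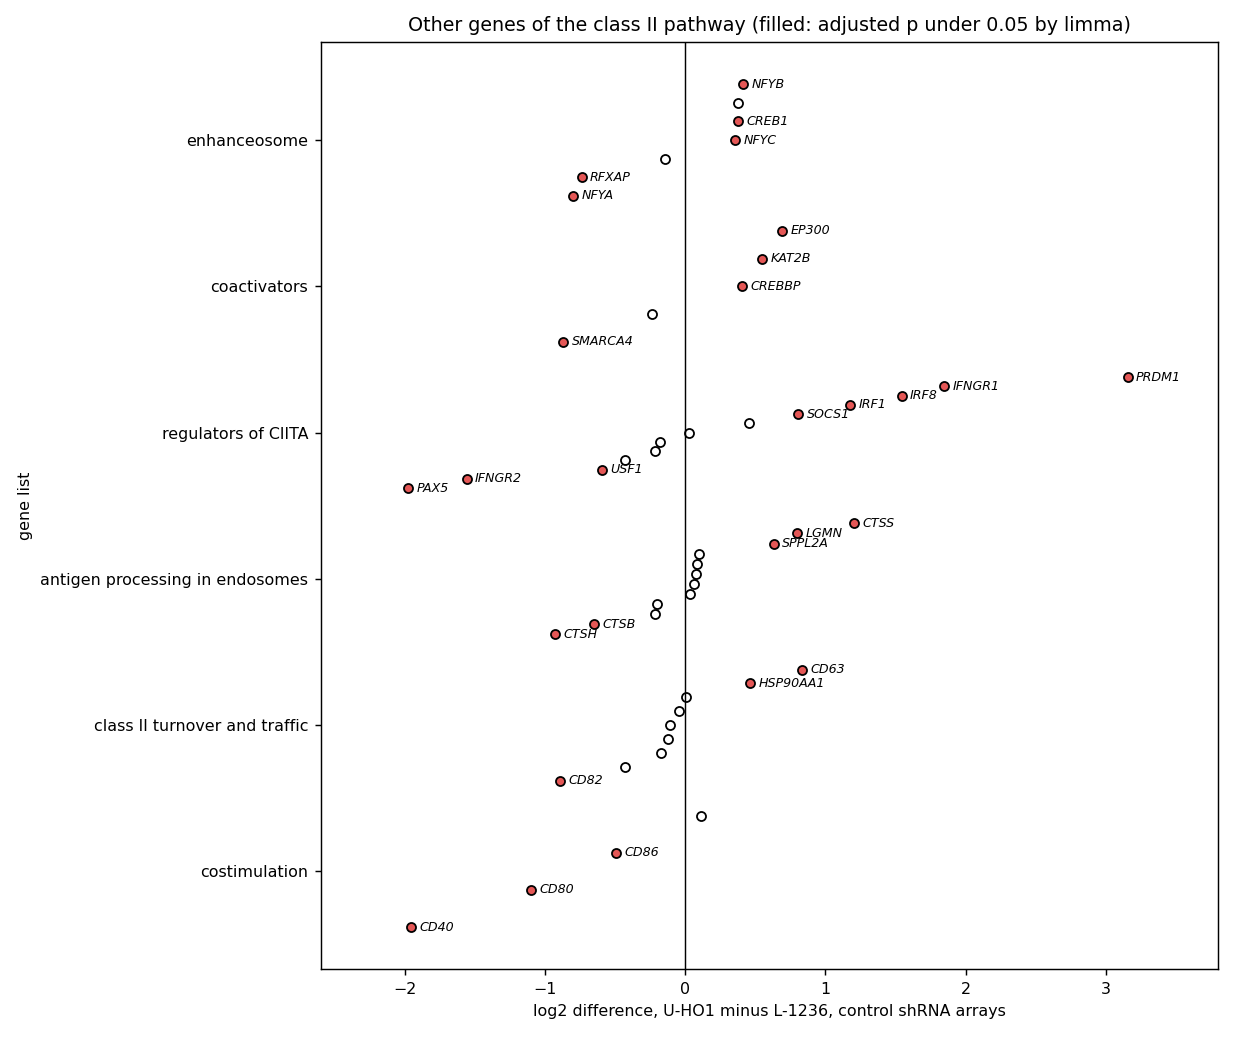
Log2 difference, U-HO1 minus L-1236, on control arrays (horizontal axis) for each measured gene of 6 lists of the class II pathway (vertical axis), filled and named where the limma adjusted p was under 0.05. Filled points lie on both sides of 0 in each list but costimulation, where the 3 filled points lie below 0.

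The genes whose pattern was most like that of CIITA were sought by Pearson correlation in the 6 arrays of each line separately, ranking 18396 genes by the lower of their 2 values. They were MIR127 (0.94 in L-1236 and 0.94 in U-HO1), RFPL1 (0.89 and 0.99) and RAET1G (0.88 and 0.95). With 6 arrays and so many genes compared, high values are found by the search itself, and none was tested. The measured genes of the set were left out of this search, so none of them could appear.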

How the data were processed

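RNA of 2 Hodgkin lymphoma lines was measured on 12 arrays. The values are the authors' deposited processed table, read here as log2 from its range, and the submitters' processing notes name R 2.8.1. No source used here gives the background correction, normalization or log base. A step that shrinks differences of dim probe sets would shorten their folds. Of 32321 probe sets, 19158 have 1 gene symbol, 1388 several and 11775 none in the platform's annotation. Of the first, 19128 matched a GRCh38.p14 gene table by Entrez identifier, which changed 0 symbols.

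Groups follow the titles. One limma model (3.58.1, R 4.3.3) held a mean for each of 4 groups, with 8 residual degrees of freedom. Its code was also run on simulated arrays with independent noise and few changed probe sets. Such arrays differ from these, so that run checks the code only and lends nothing to the results. Benjamini-Hochberg adjustment ran over the whole table. Fold changes are 2 to the power of the log2 difference. The genes and lists were chosen with earlier results of these data known. Named genes are the 10 of the set, GATA3, up to 4 of each list by smallest p on control arrays, and the 3 most like CIITA. TNFRSF8 and CD3D were added as defining markers, and IFNGR1 beside IFNGR2. Alternatives were quantile normalization, a replicate block, array weights (statmod 1.5.0), centring, a trended robust prior, no dim probe sets, only the arrays compared, 1 probe set for each gene, every probe set called, natural logarithms and leaving out each array. No column of other samples was present, and the rule for genes most like CD74 could not be applied. How far same-numbered replicates deviated together is given under the dependence on processing.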

Additional observations from a re-analysis of the deposited data

How the results depend on the processing

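All 8 differences between the lines kept their direction in both comparisons under the alternatives run. They also kept their call, except that HLA-DPB1 and HLA-DMA lost it where every probe set of a gene had to pass (6 of 8 in both comparisons). Under the other alternatives the adjusted p by limma was at most 0.0152 (HLA-DQA1, control arrays). The counts stayed at 8 of 8 on leaving out any array, and at 5 to 6 (control) and 4 to 5 (GATA-3 shRNA) at 2-fold. Without L-1236 control replicate 3, HLA-DQA1 fell under 2-fold (-0.73), and HLA-DPA1 (1.01) and HLA-DMB (1.05) passed it. Values read as natural logarithms put 8 and 8 genes past 2-fold. That reading lowers the difference needed, so these counts could not fall below those read as log2. Shares of all probe sets were not computed for the counts under the alternatives. With the replicate number as a block the counts were 8 and 5 on control arrays, 8 and 4 on GATA-3 shRNA arrays, and 0 in each comparison of the labels. Of 6 same-numbered pairs, 2 deviated together with a correlation over 0.1 (-0.40 to 0.32). L-1236 control replicate 2 and GATA-3 shRNA replicate 3, of different number, reached 0.54. Deviations from means of 3 arrays cannot show whether the numbers pair the samples. An alternative chosen after seeing the data left out GATA-3 shRNA replicate 1 and control replicate 3 of each line, where GATA3 had gone against the label, and gave 8 and 6, 8 and 4, and 0. Between the labels no setting gave a call, and differences near 0 changed sign, for causes not tested. In L-1236 HLA-DOA was 0.018 with centred medians, and without those arrays HLA-DOA was 0.039 and HLA-DOB 0.12. Leaving out 1 array moved HLA-DOA from -0.10 to 0.065 and HLA-DOB from -0.32 to 0.23. In U-HO1 HLA-DPB1 was 0.0018 after quantile normalization, and leaving out 1 array moved HLA-DPA1 from -0.071 to 0.0093, HLA-DPB1 from -0.087 to 0.026, HLA-DMA from -0.27 to 0.036, HLA-DMB from -0.013 to 0.13, HLA-DOA from -0.13 to 0.012 and HLA-DOB from -0.053 to 0.073. The difference between the lines in the effect of the label was -0.0091 for CIITA with centred medians, and 0.089 for HLA-DMB and 0.12 for HLA-DOA with array weights. Leaving out 1 array moved it from -0.19 to 0.064 for HLA-DMB, -0.12 to 0.057 for HLA-DOA and -0.22 to 0.33 for HLA-DOB. GATA3 in L-1236 differed by -0.071 after quantile normalization. That difference between lines could not be fitted on only the arrays compared, since it uses all 12. Dim probe sets are limited by signal over background, which the deposited values do not give.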
